A study of Mus musculus with 6 samples.

Results

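The glutathione, thioredoxin and NRF2 antioxidant genes are the mRNAs with which a cell makes, recycles and spends the thiols that detoxify peroxides, and the factors that control those mRNAs. The 35 genes were taken by symbol: 3 regulators (Nfe2l2, Nfe2l1 and Keap1), 4 genes of glutathione synthesis and cystine supply, 3 of glutathione recycling and glutaredoxins, 5 glutathione transferases, 4 of thioredoxin and sulfiredoxin, 6 peroxiredoxins, 3 superoxide dismutases and catalase, the quinone reductase Nqo1, and 6 enzymes of NADPH supply and the pentose phosphate pathway. All 35 were found among the 27179 gene identifiers counted, and 34 had enough counts to be tested, the exception being Srxn1.

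The RNA came from mouse germinal vesicle (GV) oocytes, which are fully grown and arrested in the first meiotic prophase, in pools of about 10 oocytes. In the 3 knockout pools, floxed exon 5 of Prdm10 had been deleted by Cre under the Zp3 promoter, which acts in growing oocytes, so that the loss concerns the maternal, oocyte store of this zinc finger regulator. The 3 other pools are labelled wildtype; the labels name no floxed allele or Cre in them, and give neither the strain nor the age of the mice. The replicates are called biological, but whether each pool had its own mice is not stated. The p-values therefore rest on the variation among pools, which may be technical.

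NRF2, encoded by Nfe2l2, is a transcription factor that KEAP1 normally hands to a cullin ubiquitin ligase for destruction. When KEAP1 is modified by oxidants, NRF2 accumulates and binds antioxidant response elements at genes of glutathione synthesis, thioredoxin function and NADPH supply. Glutathione and NADPH are stored in the growing oocyte and protect the egg and, after fertilization, the decondensing sperm chromatin and the early embryo.

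Promoter windows of the 35 genes were read from RefSeq (GRCm38.p6, 250 bases before to 50 after each annotated start) to show where the best known control elements of this pathway lie. Windows were held for 31 genes, the others being Gclc, Gsr, Gsta4 and Prdx6. The core of the antioxidant response element, TGACNNNGC on either strand, occurred in the windows of 9 of these 31 genes, against 16.4% of the 11548 tested genes with a window and 12.4% of all 32851 windows. The amino acid response element, searched as TGATGNAA on either strand, occurred in 1 of the 31, against 3.07% of tested genes and 4.51% of all genes with a window. A match is a description of letters and shows no binding. The following stretches carry the matches in capitals, with 12 bases to either side, each read 5′ to 3′ on the strand of its gene. The RefSeq starts used for Gclm, Pgd, Prdx4 and, below, Slc7a11 lie inside the annotated bounds of the gene, and Pgd's outermost start had no match.

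Gclm (chr3:122245411-122245443, + strand): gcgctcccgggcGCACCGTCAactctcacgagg
Prdx1 (chr4:116685454-116685486, + strand): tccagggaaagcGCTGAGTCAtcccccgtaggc
Me1 (chr9:86695900-86695932, - strand): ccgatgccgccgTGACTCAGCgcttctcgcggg
G6pdx (chrX:74428917-74428949, - strand): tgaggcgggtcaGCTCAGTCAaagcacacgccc
Gstm5 (chr3:107895800-107895832, + strand): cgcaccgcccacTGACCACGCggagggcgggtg
Sod1 (chr16:90220694-90220726, + strand): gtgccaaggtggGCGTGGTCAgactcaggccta
Pgd (chr4:149166059-149166091, - strand): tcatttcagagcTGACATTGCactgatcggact
Srxn1 (chr2:152105540-152105572, + strand): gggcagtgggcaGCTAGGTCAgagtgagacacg

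The windows of Nfe2l2 and Slc7a11, the regulator and the cystine carrier whose mRNAs differed between genotypes below, are given whole. That of Nfe2l2 holds 1 antioxidant response element 240 bases before the start, and that of Slc7a11 holds the amino acid response element on each strand, 66 and 47 bases before the start, and no antioxidant response element. Capitals mark these matches.

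Nfe2l2 (chr2:75704614-75704913, - strand): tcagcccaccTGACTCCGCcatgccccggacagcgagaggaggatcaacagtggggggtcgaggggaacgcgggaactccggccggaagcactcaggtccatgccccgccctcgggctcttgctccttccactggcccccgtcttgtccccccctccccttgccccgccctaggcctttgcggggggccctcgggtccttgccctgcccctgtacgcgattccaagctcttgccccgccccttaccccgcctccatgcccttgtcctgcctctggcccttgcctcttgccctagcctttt
Slc7a11 (chr3:50443564-50443863, - strand): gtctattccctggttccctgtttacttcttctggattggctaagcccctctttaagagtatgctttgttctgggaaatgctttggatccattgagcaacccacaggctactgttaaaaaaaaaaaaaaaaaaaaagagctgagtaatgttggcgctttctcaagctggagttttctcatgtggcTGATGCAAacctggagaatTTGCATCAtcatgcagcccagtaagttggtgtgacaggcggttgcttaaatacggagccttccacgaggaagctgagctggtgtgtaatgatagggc

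Prdm10 itself had 2.80, 3.82 and 3.05 CPM, which are counts scaled to the size of each library, in knockout oocytes, against 10.4, 23.1 and 23 CPM in wildtype oocytes (log2 fold change -2.54, adjusted p = 0.00436, edgeR); the counts are per gene and do not separate exon 5. The total counts were 33698776 to 37966868 in knockout and 22492228 to 38831227 in wildtype libraries. Wildtype replicate 1 stood apart from the others: its rank correlation across genes with wildtype replicates 2 and 3 was 0.976 and 0.975, against 0.996 between those and 0.995 to 0.997 among knockout libraries. Among the 34 antioxidant genes tested, wildtype replicate 1 exceeded the average of wildtype replicates 2 and 3 by over 1.5-fold for 7 and fell short of it by as much for 4 (0.5 CPM added to each value), whereas 0 differed that much between wildtype replicates 2 and 3. Values without this library are therefore given where they change a call or a sign of an antioxidant gene. The log2 fold changes of Glrx, Gsta4, Txn1 and Prdx5 turned without it, to 0.01, 0.08, 0.05 and 0.12, and none of these genes passed. The 10 oocyte markers checked, among them Zp3 and Gdf9, summed to 23904 to 25511 CPM in knockout and 20938 to 25480 CPM in wildtype libraries. No oocyte marker passed with all libraries. Dppa3 (log2 -0.27, adjusted p = 0.166, edgeR) and Oosp1 (log2 -0.57, adjusted p = 0.201, edgeR) were lower without overlap. Without wildtype replicate 1 Dppa3 (log2 -0.29, adjusted p = 0.00504, edgeR) and Bmp15 (log2 -0.16, adjusted p = 0.0318, edgeR) passed as lower. With all libraries Bmp15 was at log2 0.17. Markers of granulosa and cumulus cells (13 genes) summed to 62.6 to 90.8 CPM in knockout and 71.0 to 85.6 CPM in wildtype, with Tnfaip6 at 0 in every library but knockout replicate 2. Of these Ptgs2 was 2.76-fold higher in knockout (adjusted p = 0.0446, edgeR). Cyp19a1, the most abundant of them, averaged lower in knockout and did not pass (log2 -0.44, adjusted p = 0.205, edgeR). Without wildtype replicate 1 Cyp19a1 passed as lower (log2 -0.64, adjusted p = 0.000857, edgeR). Has2 (log2 0.80, adjusted p = 0.0251, edgeR) and Hsd3b1 (log2 2.31, adjusted p = 0.018, edgeR) then passed as higher. With all libraries Kitl was lower and Has2 higher without overlap, and neither passed. Cyp11a1 had 2.24, 2.06 and 11 CPM in knockout and 11.4, 1.73 and 0.961 CPM in wildtype libraries, and Hsd3b1 was likewise high in knockout replicate 3 and wildtype replicate 1. Theca and stroma markers (7 genes) summed to 3.83 to 6.17 CPM in knockout and 2.93 to 6.12 CPM in wildtype. Those of blood, immune and endothelial cells (8 genes) summed to 117 to 121 CPM in knockout and 36.5 to 82.2 CPM in wildtype, nearly all of it Pecam1 and Cd68, with Cdh5 and Hba-a1 at 0 in every library. Cd68 was 4.86-fold higher in knockout (adjusted p = 0.0108, edgeR). Pecam1, at 103 to 105 CPM in knockout and 30.4 to 75.7 CPM in wildtype, did not pass (log2 0.79, adjusted p = 0.143, edgeR). Without wildtype replicate 1 Pecam1 passed as higher (log2 0.47, adjusted p = 0.000207, edgeR). The part of these marker differences in the results was not tested.

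In knockout oocytes Nfe2l2, Slc7a11 and Prdx2 fell, and Gstp1, Prdx4 and Pgd rose, all by less than 2-fold. The other 28 tested genes did not pass. These 6 of 34, or 17.6%, had an adjusted p below 0.05 by the quasi-likelihood method of edgeR, where 11.2% of all 14957 tested genes did. By direction 8.82% of the antioxidant genes rose and 8.82% fell, against 5.87% and 5.34% of all tested genes. The median log2 fold change (knockout over wildtype) was 0.03 over the 34 genes and 0.00 over all tested genes, and the range was -0.95 to 0.97. Without wildtype replicate 1 all 6 kept their call. Without wildtype replicate 2 Nfe2l2, Prdx2 and Prdx4 did, without wildtype replicate 3 Prdx2 and Prdx4, without knockout replicate 1 Prdx4 alone, and without knockout replicate 2 or 3 none of the 6. Calls over all genes fell too, from 878 higher and 798 lower with every library. They were 216 to 249 higher and 141 to 152 lower without 1 knockout replicate. With wildtype replicate 2 or 3 left out, they were 473 to 501 higher and 426 to 437 lower. In bulk RNA, fewer transcripts per oocyte and a smaller share of oocytes with the transcript cannot be told apart.

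**Figure D1:**
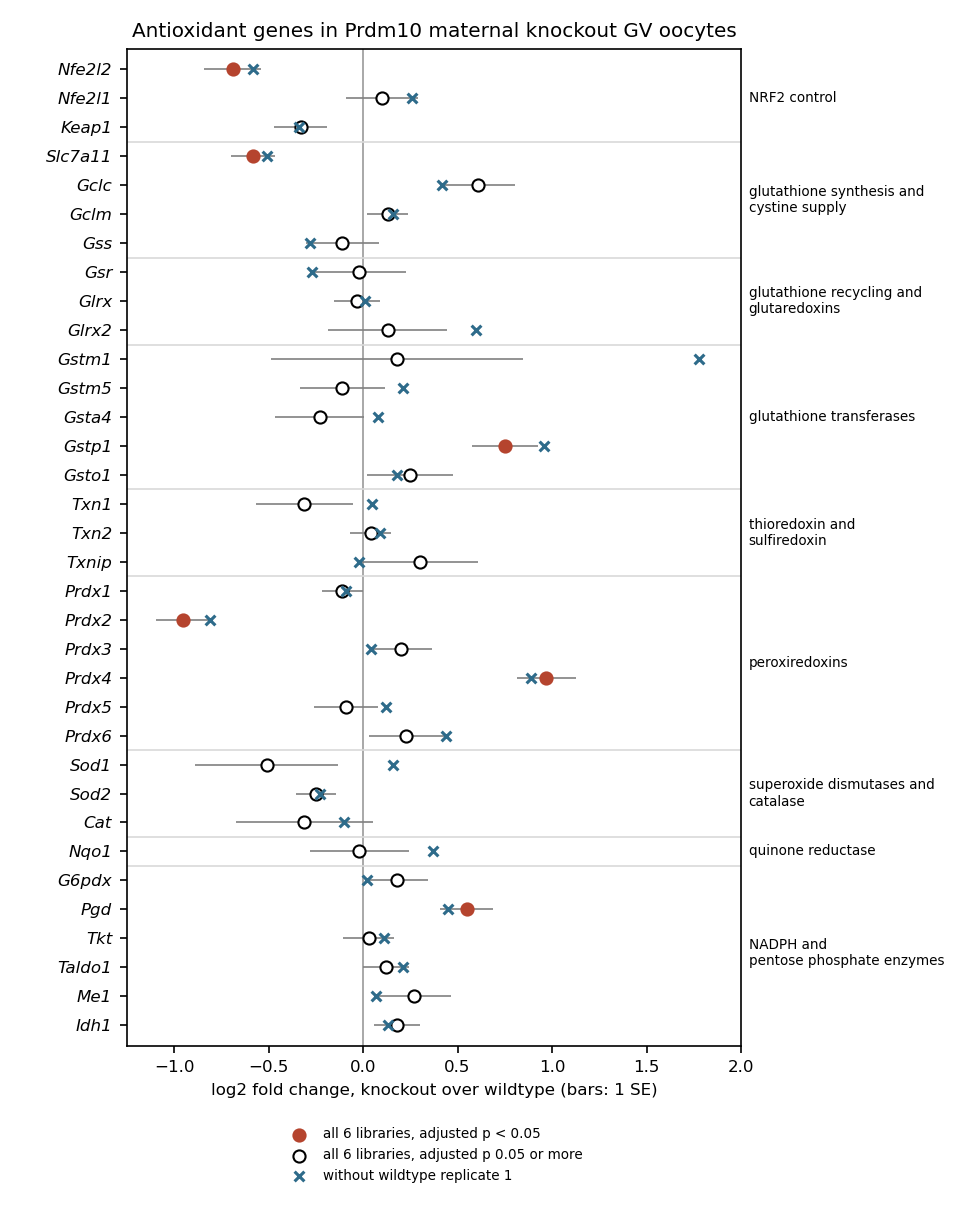
Log2 fold change, knockout over wildtype, of the 34 tested antioxidant genes by class, with bars of 1 standard error; filled circles passed an adjusted p of 0.05 with all 6 libraries, open circles did not, and crosses give the value without wildtype replicate 1. The filled circles are the 3 genes that fell (Nfe2l2, Slc7a11, Prdx2) and the 3 that rose (Gstp1, Prdx4, Pgd), all between -0.95 and 0.97; the cross farthest from its circle is that of Gstm1, at 1.78.

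Among the regulators the mRNA of NRF2 itself was lower. Nfe2l2 (Entrez 18024, GRCm38 chromosome 2, 75675513 to 75704663) had 17.4, 15 and 16.2 CPM in knockout libraries, against 29.7, 21.9 and 26.5 CPM in wildtype libraries. The genotypes did not overlap, the knockout libraries being the lower ones. The fall was 1.61-fold (log2 fold change -0.69, SE 0.152, adjusted p = 0.0297, edgeR), and it was -0.58 on the log2 scale without wildtype replicate 1 (adjusted p = 0.00245, edgeR). Keap1, the adaptor that holds NRF2 in check, had 9.17, 9.32 and 8.93 CPM in knockout and 11.4, 12.6 and 10.5 CPM in wildtype libraries. Its groups did not overlap either, but the difference did not pass the test (log2 fold change -0.33, SE 0.139, adjusted p = 0.162, edgeR). Nfe2l1, which encodes NRF1, a relative of NRF2 known for control of proteasome genes, averaged 117 ± 22.3 CPM in knockout and 109 ± 22 CPM in wildtype libraries (SD, n = 3 each), and its libraries overlapped.

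Of the genes of glutathione synthesis and cystine supply, Slc7a11 fell and the other 3 did not pass. Slc7a11 encodes the light chain of the exchanger that imports cystine, the source of the cysteine in glutathione (Entrez 26570, chromosome 3, 50364936 to 50499087). It had 164, 164 and 178 CPM in knockout libraries, against 277, 242 and 241 CPM in wildtype libraries. The highest knockout library lay well below the lowest wildtype library. The fall was 1.5-fold (log2 fold change -0.58, SE 0.116, adjusted p = 0.0206, edgeR), and -0.51 on the log2 scale without wildtype replicate 1 (adjusted p = 8.83e-05, edgeR). Slc3a2, the heavy chain of the same exchanger and of other amino acid carriers, averaged 269 ± 8.67 CPM in knockout and 212 ± 23.5 CPM in wildtype libraries (SD, n = 3 each), a difference in the other direction that did not pass with all libraries (log2 0.35, adjusted p = 0.110, edgeR) and passed without wildtype replicate 1 (log2 0.26, adjusted p = 0.00568, edgeR).

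Gclc, the catalytic subunit of glutamate-cysteine ligase, which sets the rate of glutathione synthesis, had 23.9, 21.7 and 24.1 CPM in knockout and 11, 17.4 and 17.3 CPM in wildtype libraries. All knockout libraries were above all wildtype libraries, with wildtype replicate 1 the lowest, and the test was not passed (log2 0.61, SE 0.196, adjusted p = 0.0844, edgeR). Without that library Gclc was 0.42 higher on the log2 scale (adjusted p = 0.00704, edgeR). Gclm, the modifier subunit, had 79.3, 86.6 and 81.5 CPM in knockout and 78.2, 73.6 and 74.3 CPM in wildtype libraries. These groups did not overlap but lay close together (log2 0.13, SE 0.107, adjusted p = 0.453, edgeR). Gss, glutathione synthetase, was scarce, at 6.95 ± 0.177 CPM in knockout and 7.52 ± 1.66 CPM in wildtype libraries (SD, n = 3 each).

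**Figure D2:**
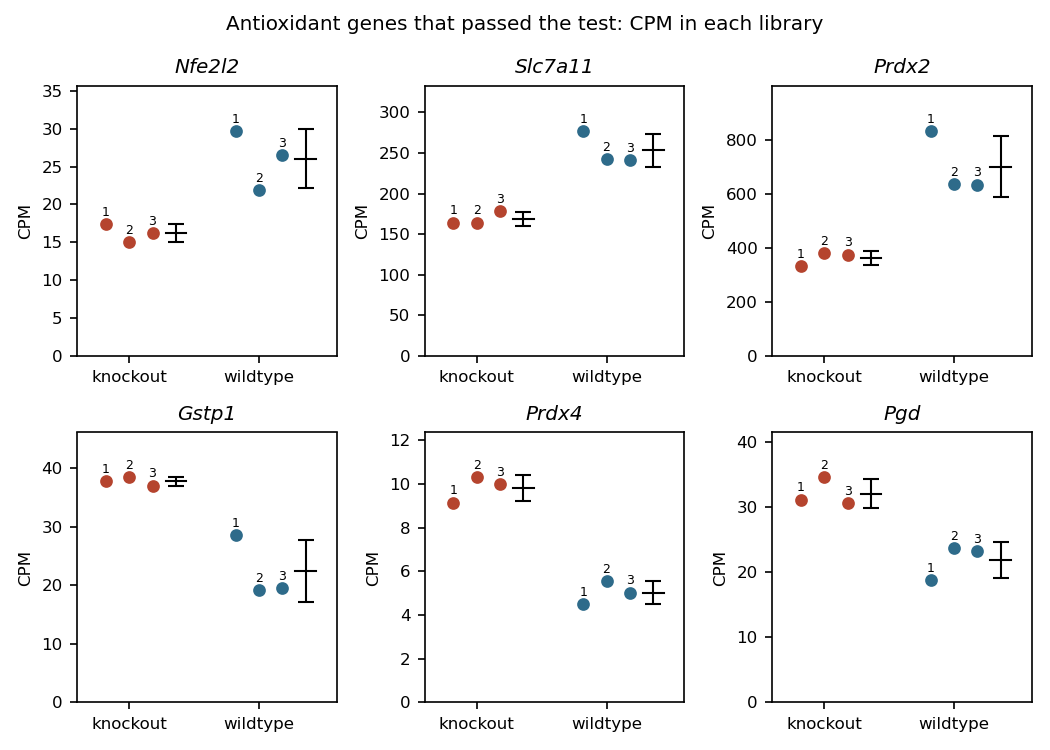
CPM in each library of the 6 antioxidant genes that passed the test, knockout left and wildtype right in each panel; points are libraries numbered by replicate, and the bar beside them is the mean with its SD (n = 3). In all 6 panels the knockout points do not overlap the wildtype points, and Prdx2 at 331.6 to 378.8 CPM in knockout against 633.0 to 832.3 CPM in wildtype is the widest gap in CPM.

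None of the 3 genes of glutathione recycling and glutaredoxins passed. Gsr, which reduces oxidized glutathione with NADPH, stood at 5.83 ± 0.0936 CPM in knockout and 5.95 ± 1.85 CPM in wildtype libraries (SD, n = 3 each). Glrx, the cytosolic glutaredoxin, was among the more abundant transcripts of the group, at 599 to 717 CPM in knockout and 658 to 727 CPM in wildtype libraries. Glrx2, the mitochondrial glutaredoxin, had 5.10, 4.33 and 4.69 CPM in knockout and 6.48, 2.66 and 3.57 CPM in wildtype libraries, so that wildtype replicate 1 lay above all the others (without it, log2 0.60, adjusted p = 0.0274, edgeR).

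Among the glutathione transferases, which couple glutathione to electrophiles, Gstp1 rose and the other 4 did not pass. Gstp1 (Entrez 14870, chromosome 19, 4035411 to 4037912) had 37.8, 38.4 and 37.0 CPM in knockout libraries, against 28.6, 19.2 and 19.5 CPM in wildtype libraries. The knockout libraries were close together and all above the wildtype ones. The rise was 1.68-fold (log2 0.75, SE 0.175, adjusted p = 0.0347, edgeR), and 0.96 on the log2 scale without wildtype replicate 1 (adjusted p = 1.69e-05, edgeR). Its near copies in the mouse genome, which could share its reads, were also higher, Gstp2 at 9.61 ± 0.849 against 3.42 ± 0.673 CPM and the pseudogene Gstp-ps at 38.5 ± 0.601 against 19.6 ± 3.81 CPM (knockout against wildtype, SD, n = 3 each), so the value of Gstp1 alone is uncertain. Its call was lost under library totals (adjusted p = 0.0649, edgeR), upper quartile scaling (adjusted p = 0.0551, edgeR) and a stricter filter on low counts (adjusted p = 0.0711, edgeR).

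The mu class transferase Gstm5 had 232, 252 and 236 CPM in knockout and 365, 215 and 200 CPM in wildtype libraries, and Gsta4, which acts on products of lipid peroxidation, had 108, 142 and 128 CPM in knockout and 206, 120 and 118 CPM in wildtype libraries. For both, wildtype replicate 1 was the highest of the 6 libraries and the groups overlapped. The sign for Gstm5 depended on that library: the log2 fold change was -0.11 with it (adjusted p = 0.766, edgeR) and 0.21 without it (adjusted p = 0.0233, edgeR). Gstm1 was near the limit of what these libraries count well, at 1.89, 1.79 and 2.20 CPM in knockout and 3.75, 0.424 and 0.732 CPM in wildtype libraries, and shares sequence with other mu class genes. Without wildtype replicate 1 its log2 fold change was 1.78, against 0.18 with it, on 11 and 16 counts in the remaining wildtype libraries. Gsto1 was similarly scarce, at 2.33 to 3.73 CPM in knockout and 2.31 to 2.79 CPM in wildtype.

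In the thioredoxin group none of the 3 tested genes passed. Thioredoxin reduces protein disulfides in the cytosol (Txn1) and mitochondria (Txn2), and Txnip encodes a protein that binds thioredoxin and restrains glucose uptake. Txnip had 1091, 1108 and 1139 CPM in knockout and 458, 1152 and 1096 CPM in wildtype libraries. Only wildtype replicate 1 lay away from the other libraries, and without it the log2 fold change was -0.02, against 0.30 with it. Txnip lies wholly within Gm15441, which had 1.45 ± 0.210 CPM in knockout and 3.37 ± 1.18 CPM in wildtype libraries (SD, n = 3 each). Txn1 had 47.3, 54.9 and 58.9 CPM in knockout and 96.2, 56.7 and 46.6 CPM in wildtype libraries, wildtype replicate 1 being the highest. Txn2 averaged 234 ± 6.04 CPM in knockout and 228 ± 13.8 CPM in wildtype libraries (SD, n = 3 each). Srxn1, the sulfiredoxin that repairs overoxidized peroxiredoxins and a much used NRF2 target, had 2, 2 and 0 counts in knockout and 1, 1 and 2 counts in wildtype libraries. At this depth, where 3 counts correspond to 0.072 to 0.137 CPM, a fall or a small rise in Srxn1 was not detectable. No library held more than 2 counts of it.

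The peroxiredoxins, the enzymes that reduce most of a cell's hydrogen peroxide, held both the largest fall and the largest rise among the 34 genes with all 6 libraries; without wildtype replicate 1 the rises of Gstm1 (log2 1.78) and Gstp1 (0.96) exceeded that of Prdx4 (0.89). Prdx2, an abundant cytosolic peroxiredoxin (Entrez 21672, chromosome 8, 84969622 to 84974811), had 331.6, 378.8 and 374.6 CPM in knockout libraries, against 832.3, 636.0 and 633.0 CPM in wildtype libraries. The knockout libraries were all far below the wildtype ones, including wildtype replicates 2 and 3. The fall was 1.94-fold (log2 -0.95, SE 0.146, adjusted p = 0.00868, edgeR) and -0.81 on the log2 scale without wildtype replicate 1 (adjusted p = 5.57e-06, edgeR). Prdx4, the peroxiredoxin of the endoplasmic reticulum (Entrez 53381, chromosome X, 155323918 to 155342272), had 9.14, 10.3 and 10.0 CPM in knockout libraries, against 4.51, 5.55 and 5.03 CPM in wildtype libraries. Again the groups were clearly apart. The rise was 1.95-fold (log2 0.97, SE 0.155, adjusted p = 0.0102, edgeR) and 0.89 on the log2 scale without wildtype replicate 1 (adjusted p = 0.000555, edgeR).

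The other 4 peroxiredoxins did not pass. Prdx1, the closest cytosolic relative of Prdx2, stood at 543, 567 and 587 CPM in knockout and 625, 632 and 573 CPM in wildtype libraries, with overlapping groups (log2 -0.11, adjusted p = 0.532, edgeR). Prdx3, of mitochondria, averaged 39.8 ± 2.17 CPM in knockout and 34.7 ± 6.86 CPM in wildtype, and Prdx5, of mitochondria and peroxisomes, averaged 58.0 ± 1.91 CPM in knockout and 61.7 ± 14.3 CPM in wildtype (SD, n = 3 each). Prdx6, which uses glutathione, had 27.7, 29.9 and 31.2 CPM in knockout and 31.9, 24.7 and 18.7 CPM in wildtype libraries. Of the 6 single libraries left out in turn, it passed only without wildtype replicate 1 (log2 0.44, adjusted p = 0.0154, edgeR). Summed over the 6 genes, peroxiredoxin mRNA took 1010 to 1101 CPM in knockout and 1321 to 1599 CPM in wildtype libraries, which did not overlap. Without Prdx2 the sums were 679 to 727 CPM in knockout and 688 to 766 CPM in wildtype libraries, which did.

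The superoxide dismutases and catalase gave no call. Sod2, the mitochondrial enzyme, had 55.1, 55.0 and 55.5 CPM in knockout and 67.4, 64.3 and 65.3 CPM in wildtype libraries, a narrow and complete separation that missed the threshold (log2 -0.25, SE 0.105, adjusted p = 0.161, edgeR) and passed it without wildtype replicate 1 (log2 -0.23, adjusted p = 0.0201, edgeR). Sod1, the cytosolic enzyme, had 88.7, 101 and 101 CPM in knockout and 240, 88.2 and 85.0 CPM in wildtype libraries. Wildtype replicate 1 alone set its sign: the log2 fold change was -0.51 with it and 0.16 without it, and neither passed (adjusted p = 0.407 and 0.115, edgeR). Cat was barely detected, at 0.950 ± 0.399 CPM in knockout and 1.17 ± 0.278 CPM in wildtype libraries (SD, n = 3 each). Nqo1, the NADPH-using quinone reductase often read as a gauge of NRF2 activity, had 16.4, 18.4 and 17.7 CPM in knockout and 25.9, 14.4 and 12.6 CPM in wildtype libraries. Its log2 fold change was -0.02 with all libraries (adjusted p = 0.973, edgeR) and 0.37 without wildtype replicate 1 (adjusted p = 0.0239, edgeR).

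Of the NADPH enzymes Pgd rose, and the other 5 did not pass. Pgd, 6-phosphogluconate dehydrogenase, makes NADPH in the oxidative arm of the pentose phosphate pathway (Entrez 110208, chromosome 4, 149149991 to 149166705). It had 31.2, 34.6 and 30.6 CPM in knockout libraries, against 18.8, 23.7 and 23.3 CPM in wildtype libraries. All knockout libraries were above all wildtype libraries. The rise was 1.47-fold (log2 0.55, SE 0.140, adjusted p = 0.0434, edgeR), 0.45 on the log2 scale without wildtype replicate 1 (adjusted p = 0.00369, edgeR), and not called when no filter on low counts was used (adjusted p = 0.0525, edgeR).

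G6pdx, the first enzyme of the same arm, is very abundant in the oocyte and had 1003, 1050 and 1034 CPM in knockout and 696, 1036 and 992 CPM in wildtype libraries. Wildtype replicate 1 was the lowest, and without it the log2 fold change was 0.02, against 0.18 with it. G6pdx overlaps Ikbkg over 19398 bases, and Ikbkg had 7.26 ± 2.57 CPM in knockout and 3.35 ± 1.26 CPM in wildtype libraries (SD, n = 3 each); how reads common to both were counted is not given in the sources used here. Me1, malic enzyme, had 456, 458 and 469 CPM in knockout and 267, 451 and 427 CPM in wildtype libraries. Those groups did not overlap, and wildtype replicate 1 was far below the rest. The log2 fold change was 0.27 with it (SE 0.195, adjusted p = 0.389, edgeR) and 0.07 without it (adjusted p = 0.349, edgeR). Tkt, of the non-oxidative arm, averaged 46.6 ± 0.834 CPM in knockout and 45.6 ± 6.05 CPM in wildtype. Taldo1, of the same arm, averaged 89.2 ± 2.86 CPM in knockout and 82.2 ± 8.86 CPM in wildtype (SD, n = 3 each), and of the 6 single libraries left out in turn it passed only without wildtype replicate 1 (log2 0.21, adjusted p = 0.0261, edgeR). Idh1, the cytosolic NADPH-making isocitrate dehydrogenase, averaged 50.3 ± 3.51 CPM in knockout and 44.5 ± 2.79 CPM in wildtype (log2 0.18, adjusted p = 0.359, edgeR).

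Counted by separation of the libraries, 6 of the 34 genes (17.6%) had all knockout libraries above all wildtype libraries and 5 (14.7%) all below, against 21.0% and 19.2% of all tested genes. Those above were Gclc, Gclm, Gstp1, Prdx4, Pgd and Me1, and those below were Nfe2l2, Keap1, Slc7a11, Prdx2 and Sod2. In a list of 34 genes, shares this close to those of all genes differ by very few genes, and the difference was not tested. Without wildtype replicate 1, 10 antioxidant genes rose (29.4%, against 16.7% of all genes in that fit) and 4 fell (11.8%, against 17.7%). The risers were then Gclc, Glrx2, Gstm1, Gstm5, Gstp1, Prdx4, Prdx6, Nqo1, Pgd and Taldo1, and the fallers were Nfe2l2, Slc7a11, Prdx2 and Sod2. These shares were not tested against those of all genes either.

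**Figure D3:**
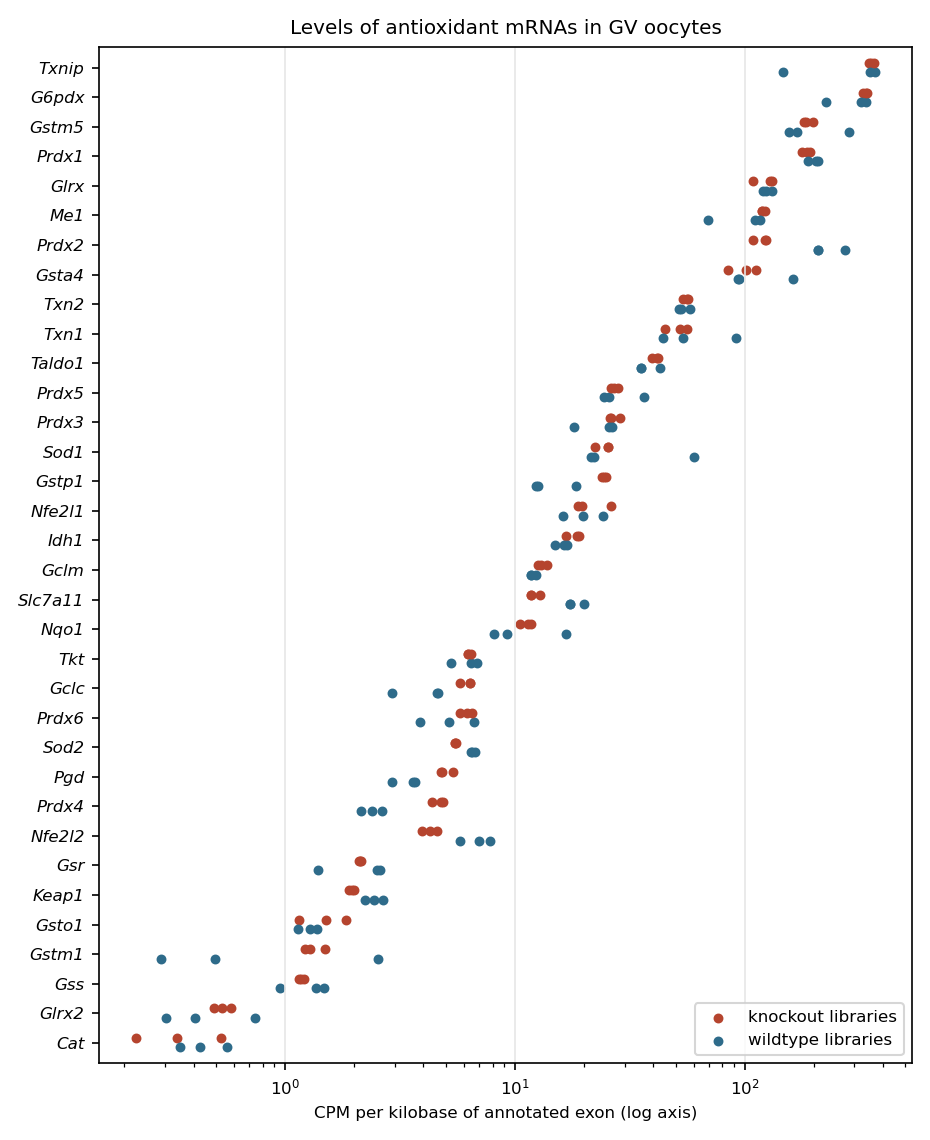
Level of each antioxidant mRNA in every library, as CPM per kilobase of annotated exon on a log axis, ordered by the knockout mean, with the knockout points above the wildtype points in each line (Srxn1, with 0 to 2 counts, is left out). Txnip and G6pdx lie at the top, at 326 to 365 in knockout libraries, and Cat at the bottom, at 0.225 to 0.527; the wildtype points of Txnip and Sod1 include 1 library far from the others.

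Per kilobase of annotated exon, a scale on which levels of different genes can be compared, Txnip (356 ± 7.77 in knockout, 289 ± 123 in wildtype) and G6pdx (334 ± 7.75 in knockout, 295 ± 60.1 in wildtype) had the highest means of the group in both genotypes (CPM per kilobase, SD, n = 3 each). Wildtype replicate 1 had another order, with Gstm5 at 285 and Prdx2 at 273 CPM per kilobase above G6pdx at 226 and Txnip at 147. Gsr, for glutathione recycling, was scarce beside them, with 2.12 ± 0.0340 CPM per kilobase in knockout and 2.16 ± 0.672 in wildtype. Gss, for its synthesis, had 1.18 ± 0.0299 CPM per kilobase in knockout and 1.27 ± 0.280 in wildtype. The mean level of Prdx2 in knockout oocytes, 119 ± 8.57 CPM per kilobase, was below that of Prdx1 at 186 ± 7.21. In wildtype oocytes the means were 230 ± 37.4 for Prdx2 and 201 ± 10.6 CPM per kilobase for Prdx1. Within each wildtype library Prdx2 was the higher (273 against 205, 209 against 208 and 208 against 188), in replicate 2 by very little. Exons of all annotated transcripts enter the length, so the level of a gene with long alternative ends is understated.

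A further 94 genes of the same pathways were examined, and 82 had enough counts. Of these 8 rose (9.76%) and 1 fell (1.22%), against 5.87% and 5.34% of all tested genes, with a median log2 fold change of 0.10. The list was chosen with earlier results of these data known, and the difference in shares was not tested. The largest change was that of Hmox1, the haem oxygenase that is a classical NRF2 target and is also repressed by BACH1. Hmox1 had 5.54, 5.10 and 4.34 CPM in knockout libraries, against 0.624, 0.809 and 0.686 CPM in wildtype libraries, where it rested on 26, 21 and 15 counts. The rise was 7.09-fold (log2 2.83, SE 0.219, adjusted p = 0.000549, edgeR), and its call held with any 1 library left out. Bach1 itself averaged 10.6 ± 0.890 CPM in knockout and 12.5 ± 0.359 CPM in wildtype libraries (SD, n = 3 each) and did not pass (log2 -0.24, adjusted p = 0.288, edgeR). Its knockout libraries (9.61, 11.2 and 11.1 CPM) nonetheless all lay below its wildtype libraries (12.4, 12.3 and 12.9 CPM). The part of Bach1 in the rise of Hmox1 was not tested.

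Gpx1, the selenium-dependent peroxidase that spends glutathione on hydrogen peroxide, had 47.9, 47.9 and 50 CPM in knockout and 25.1, 18.9 and 17.2 CPM in wildtype libraries. This was a 2.38-fold rise (log2 1.25, SE 0.162, adjusted p = 0.00455, edgeR) and was called with any 1 library left out. Txnrd1, the cytosolic thioredoxin reductase, averaged 251 ± 9.21 CPM in knockout and 206 ± 21.0 CPM in wildtype (SD, n = 3 each) and did not pass with all libraries (log2 0.29, adjusted p = 0.160, edgeR) but did without wildtype replicate 1 (log2 0.21, adjusted p = 0.0163, edgeR). Sqstm1, the autophagy receptor that also binds KEAP1, had 79.0, 59.9 and 55.2 CPM in knockout and 33.9, 38.4 and 35.2 CPM in wildtype libraries (log2 0.85, adjusted p = 0.0173, edgeR). The other risers were Tktl1, a transketolase relative (log2 2.15), the carbonyl reductase Cbr3 (1.65), H6pd, which makes NADPH inside the endoplasmic reticulum (1.17), Tmx4, a thioredoxin-related membrane protein of the same compartment (1.04), and the exporter Abcc4 (0.86).

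Nfe2l3, which encodes NRF3, a further relative of NRF2, was the 1 gene that fell, at 1.97, 1.82 and 2.22 CPM in knockout and 3.53, 4.28 and 4.44 CPM in wildtype libraries (log2 -1.02, adjusted p = 0.0179, edgeR). Of the 9 genes called, Hmox1, Gpx1 and Tktl1 kept the call with any 1 library left out. The calls of Nfe2l3 and H6pd were lost without knockout replicate 1, 2 or 3 and without wildtype replicate 2 or 3. Cbr3 was lost without knockout replicate 1 or 3, Sqstm1 without knockout replicate 1 or 2 or wildtype replicate 3, Abcc4 without any 1 of the knockout replicates, and Tmx4 without any 1 of the knockout replicates or wildtype replicate 2. Without wildtype replicate 1, 25 of 81 of these genes rose and 7 fell, which is 30.9% and 8.64%, against 16.7% and 17.7% of all genes in that fit. Nor was this difference in shares tested, in a list chosen with earlier results known.

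**Figure D4:**
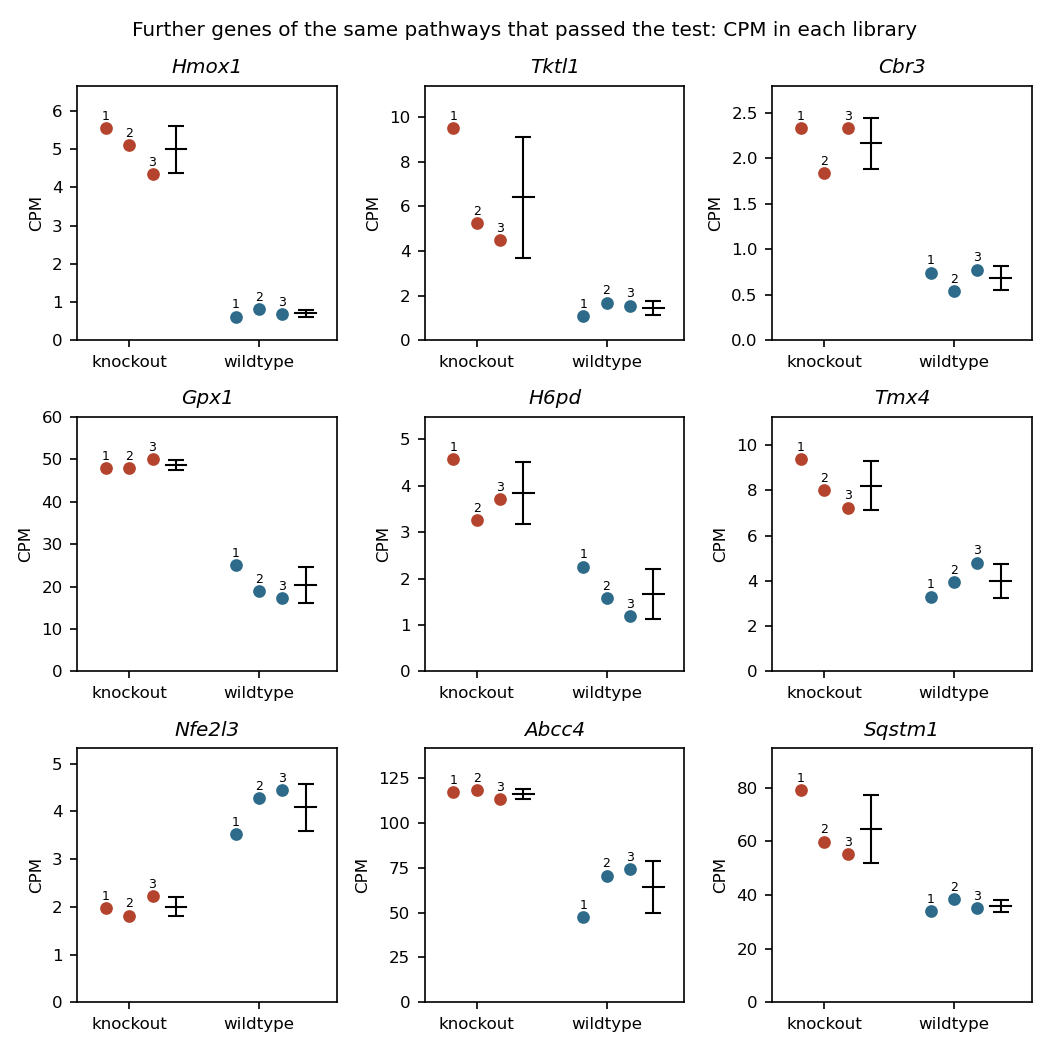
CPM in each library of the 9 further pathway genes that passed the test, knockout left and wildtype right in each panel; points are libraries numbered by replicate, and the bar beside them is the mean with its SD (n = 3). Hmox1 at 4.34 to 5.54 CPM in knockout against 0.624 to 0.809 CPM in wildtype shows the widest ratio, and Nfe2l3 is the panel in which the knockout points lie below the wildtype points.

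Set beside the promoter windows, of the 9 genes shown with an antioxidant response element Nfe2l2 fell and Pgd rose, Srxn1 could not be tested, and Gclm, Gstm5, Prdx1, Sod1, G6pdx and Me1 did not pass. Pgd's match lay just after an internal start, and the window of its outermost start had none. Of the genes that passed, Slc7a11, Prdx2, Gstp1 and Prdx4 had no match to that element in the 300 bases searched, which says nothing about elements outside them, and the windows of Prdx4 and Slc7a11 were at internal starts. Among all tested genes 11.2% were called. The share called among all tested genes with the element was not computed, so no link between element and call can be read from these few genes.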

How the data were processed

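RNA of 6 pools of GV oocytes (3 Prdm10 knockout, 3 wildtype) was amplified with SMARTer Ultra Low Input chemistry and sequenced from NexteraXT libraries, per the labels' protocols. The authors deposited raw read counts per gene for each library, and STAR 2.7.11a, featureCounts 2.0.3 and GRCm38.p6 (mm10) are named in the submitters' processing notes. Which annotation was used, whether strand was considered and how multiply matching reads were treated is not given in the sources used here. Entrez identifiers were matched to symbols in RefSeq.

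Counts were filtered with filterByExpr, scaled by TMM and tested with edgeR 4.0.16 (quasi-likelihood, R 4.3.3), genotype being the only term, over 14957 genes with Benjamini-Hochberg adjustment at 0.05. The SE was derived from the log2 fold change and its F value. CPM used TMM library sizes. The test was checked on simulated data, with changes larger than those of the antioxidant calls and no outlying library. That check does not cover changes as small as these calls. Alternatives used DESeq2 1.42.0 and limma 3.58.1. On that scale 1 count was 0.024 to 0.0457 CPM; intervals of counting error were not needed for replicated values.

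The members and lists were chosen with earlier results of these data known. Every member is accounted for, with values in each library for called members and for well detected members whose libraries did not overlap; of the 94 further genes, called ones of at least 2 CPM are named, and Bach1, Slc3a2 and Txnrd1 were added after their values were seen. No 2 libraries were alike enough to be the same library.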

Additional observations from a re-analysis of the deposited data

How the results depend on the processing

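Of the 6 calls, those of Prdx2 and Prdx4 held under all 9 alternatives of scaling, filter, test and design that kept every library. Limma-voom with sample quality weights gave 10 members higher and 5 lower, and 25 further pathway genes higher and 7 lower. The stricter filter, at least 5 CPM in 3 or more libraries, gave 4 further genes higher and 0 lower. Hmox1, Tktl1, Cbr3, H6pd and Nfe2l3 fell short of that level and were not tested under it. DESeq2 gave 3 further genes lower. With 1 library left out, members called higher numbered 0 to 10 and lower 0 to 4, and further genes higher 3 to 25 and lower 0 to 7. Over all genes, DESeq2 called 1329 higher and 1342 lower, the stricter filter 513 and 525, quality weights 2914 and 3029, and the fits without 1 library 216 to 2526 higher and 141 to 2673 lower. The cause of the other differences was not tested.

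Signs of uncalled genes turned, from -0.51 for Sod1, -0.31 for Txn1 and -0.23 for Gsta4 among others. The log2 fold changes turned for Gsr to 0.01 under upper quartile scaling and 0.07 under limma-voom, Nqo1 to 0.03 under limma-voom, and, with quality weights, Glrx to 0.05, Gstm5 to 0.21, Gsta4 to 0.12, Txn1 to 0.07, Prdx5 to 0.09, Sod1 to 0.16 and Nqo1 to 0.37. With 1 library left out, log2 fold changes spanned -0.06 to 0.26 for Nfe2l1, -0.28 to 0.02 for Gss, -0.27 to 0.13 for Gsr, -0.09 to 0.05 for Glrx, -0.12 to 0.60 for Glrx2, -0.26 to 1.78 for Gstm1, -0.27 to 0.21 for Gstm5, -0.37 to 0.08 for Gsta4, -0.51 to 0.05 for Txn1, -0.02 to 0.51 for Txnip, -0.19 to 0.12 for Prdx5, -0.75 to 0.16 for Sod1, -0.20 to 0.37 for Nqo1 and -0.07 to 0.11 for Tkt. No scaling moved the median of all genes by more than 0.01.

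The replicate numbers gave no sign of pairing: deviations of same-numbered libraries correlated at -0.058, 0.01 and -0.094. With the number as a replicate block, 1 member was called higher (Prdx4) and 1 lower (Prdx2), while Nfe2l2 (adjusted p = 0.0731, edgeR), Slc7a11 (0.0836), Gstp1 (0.0762) and Pgd (0.106) were not called at nearly the same fold changes; it gave 4 further genes higher and 0 lower, and 327 and 210 of all genes; Gsr was then 0.02 and Nqo1 0.06 on the log2 scale. Depth limits Srxn1, Cat and Gstm1, which rest on few counts.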
